A study of Mus musculus with 48 samples.

Results

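Transcripts of 7 genes for the release of ATP and other small molecules were read in 27 RNA-seq libraries of mouse bone and of MLO-Y4 cells. The genes are 3 connexins (Gja1, Gjc1 and Gjb2), 3 pannexins (Panx1, Panx2 and Panx3) and Slc17a9, taken by symbol from 55335 gene rows. The libraries fall into 9 groups of 3, in 4 tables. MLO-Y4 is 1 mouse cell line and resembles osteocytes, which live inside the mineralised matrix. It received 50 µM oligomycin A, which blocks mitochondrial ATP synthase, or DMSO vehicle for 1 h. Normally cultured cells then received the supernatant of either culture for 2 h and are called recipients here. Other MLO-Y4 cultures had 2 µM ADP for 2 h or no ADP. The bone came from wild-type C57BL/6J mice. Fragments of femur, tibia and parietal bone of 1-month-old animals were kept for 48 h in medium taken from other fragments (medium transfer) or as their control. The labels do not say which group got medium of old bone. Cortical bone of 18-month-old animals was read without a stated culture. A further 21 of 48 samples, among them 1 µM ADP and receptor knockdown cells, were not analysed here.

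Connexins are membrane proteins that form hemichannels, and hemichannels of neighbouring cells dock into gap junctions. Pannexins form large-pore channels in the plasma membrane. Gja1 encodes connexin 43, the connexin through which osteocytes are coupled along their processes. Slc17a9 encodes the vesicular nucleotide transporter, which loads ATP into secretory vesicles. Released ATP and its product ADP act on purinergic receptors of nearby cells.

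FPKM, the deposited unit, is the number of fragments per kilobase of transcript and 1000000 (1 M) sequenced fragments. It is a level per length, so members can be set beside each other within a library. Depth was estimated from the steps between low values. It came to about 15.2 to 26.1 M fragments in MLO-Y4 libraries, 29.6 to 34.3 M in old bone and 1.69 to 7.10 M in young bone. The bone estimates are rough. Nothing in the labels tells separate cultures or animals apart among replicates, so p-values cover the spread between these libraries alone, which may be technical. In vehicle replicate 2, rRNA-like and 7S RNA genes took 27.3% of the summed FPKM. Satellite-like genes held 5.83% to 89.9% of the summed FPKM in young bone and at most 0.212% in old bone. In bulk RNA, fewer cells of a type and less RNA per cell cannot be told apart.

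The labels of cells and tissue were checked against marker genes. Pdpn, a marker of early osteocytes, averaged 209 ± 11.6 FPKM in oligomycin A cells (SD, n = 3), and Phex averaged 8.95 ± 0.534 FPKM there. Sost, a marker of mature osteocytes, was listed at 0 in every MLO-Y4 library. Mepe, another such marker, had at most 0.134 FPKM in MLO-Y4 libraries, and the osteocyte marker Dmp1 at most 0.0439 FPKM. These defining transcripts were thus at or next to 0 in the cell line. The neutrophil marker genes summed to 98162 to 103718 FPKM in old cortical bone and to 299 to 1391 FPKM in young bone. Per the labels' protocols, old cortical bone was harvested with nonosseous tissue that included marrow. Whether "with" is meant there or is a slip for "without" is not known, which limits how marrow transcripts in old bone can be read.

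The start regions of Gja1 and Panx1 are shown because Gja1 was the highest member in MLO-Y4 cells and Panx1 lay at or next to 0 there, while both were above 0 in all 9 bone libraries. RefSeq (GRCm38.p6) start regions were at hand for 3 of the 7 members. Each runs 5′ to 3′ on the gene's strand from 250 bases before to 50 bases after the start of transcription. The Gja1 region is chr10:56377050-56377349 on the plus strand, and the Panx1 region is chr9:15045429-15045728 on the minus strand. Capitals mark the AP-1 motif TGAGTCA.
Gja1: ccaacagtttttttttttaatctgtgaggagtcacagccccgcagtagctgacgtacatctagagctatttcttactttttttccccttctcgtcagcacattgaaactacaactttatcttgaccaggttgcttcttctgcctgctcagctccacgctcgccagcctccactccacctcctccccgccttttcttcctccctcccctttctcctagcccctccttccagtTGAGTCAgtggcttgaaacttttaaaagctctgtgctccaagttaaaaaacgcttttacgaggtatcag
Panx1: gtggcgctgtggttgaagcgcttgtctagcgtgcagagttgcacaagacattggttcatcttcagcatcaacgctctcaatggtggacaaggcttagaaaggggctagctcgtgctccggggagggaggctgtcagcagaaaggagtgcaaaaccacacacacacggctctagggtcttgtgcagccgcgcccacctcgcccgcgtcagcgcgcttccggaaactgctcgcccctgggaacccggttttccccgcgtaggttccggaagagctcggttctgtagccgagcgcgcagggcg
The motif was searched on both strands, as TGAGTCA and TGACTCA. The Gja1 region holds it once, starting at position -19 relative to the start of transcription, and the Panx1 region has no match. Of 32851 RefSeq regions of this length, 5.2% hold it. The letters GGGCGG of the Sp1 motif, also searched as CCGCCC, had no match in either region, against 35.7% of all regions. Both motifs were chosen after the levels were seen, and a match is not a measured binding site.

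Gja1 (ENSMUSG00000050953, chromosome 10, 56377330 to 56402513, plus strand, GRCm38, protein-coding) was the highest member in 25 of 27 libraries and the highest connexin in all 27. In the 18 MLO-Y4 libraries it had a lowest value of 27.1 FPKM, a median of 31.1 FPKM and a highest value of 50.8 FPKM, at percentiles 92.8 to 96.9 of protein-coding genes. Its group means ran in the order vehicle supernatant, vehicle, oligomycin A supernatant, oligomycin A, no ADP, 2 µM ADP, medium transfer, bone control and old cortical bone. Neighbours in that order overlapped in their libraries in 6 of 8 cases. The 2 µM ADP and no ADP libraries did not overlap, nor did bone control and old cortical bone. Levels from different tables were normalized separately and were not tested against each other.

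Gjc1 (ENSMUSG00000034520, chromosome 11, 102799579 to 102819700, minus strand), which encodes connexin 45, had 4.84 to 7.80 FPKM in MLO-Y4 cells with a median of 6.66 FPKM. Its group means did not follow the order of Gja1. They were 7.39 ± 0.321 FPKM with 2 µM ADP, 7.25 ± 0.592 with no ADP, 6.50 ± 0.337 with oligomycin A supernatant, 6.90 ± 0.205 with vehicle supernatant, 5.12 ± 0.263 with oligomycin A and 5.97 ± 0.497 FPKM with vehicle (SD, n = 3 each). Ordered by mean, each neighbouring pair down to vehicle overlapped in its libraries, while oligomycin A and vehicle did not. In bone it had 1.17 ± 0.911 FPKM after medium transfer, 0.707 ± 0.185 FPKM in bone control and 0.0215 ± 0.0275 FPKM in old cortical bone (SD, n = 3 each). Gjb2 (ENSMUSG00000046352, chromosome 14, 57098600 to 57104702, minus strand), the connexin 26 gene, was listed at 0 in 24 of 27 libraries. The 3 others, all of young bone, had 0.231 to 0.287 FPKM, about 1.90 to 4.24 fragments.

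**Figure D1:**
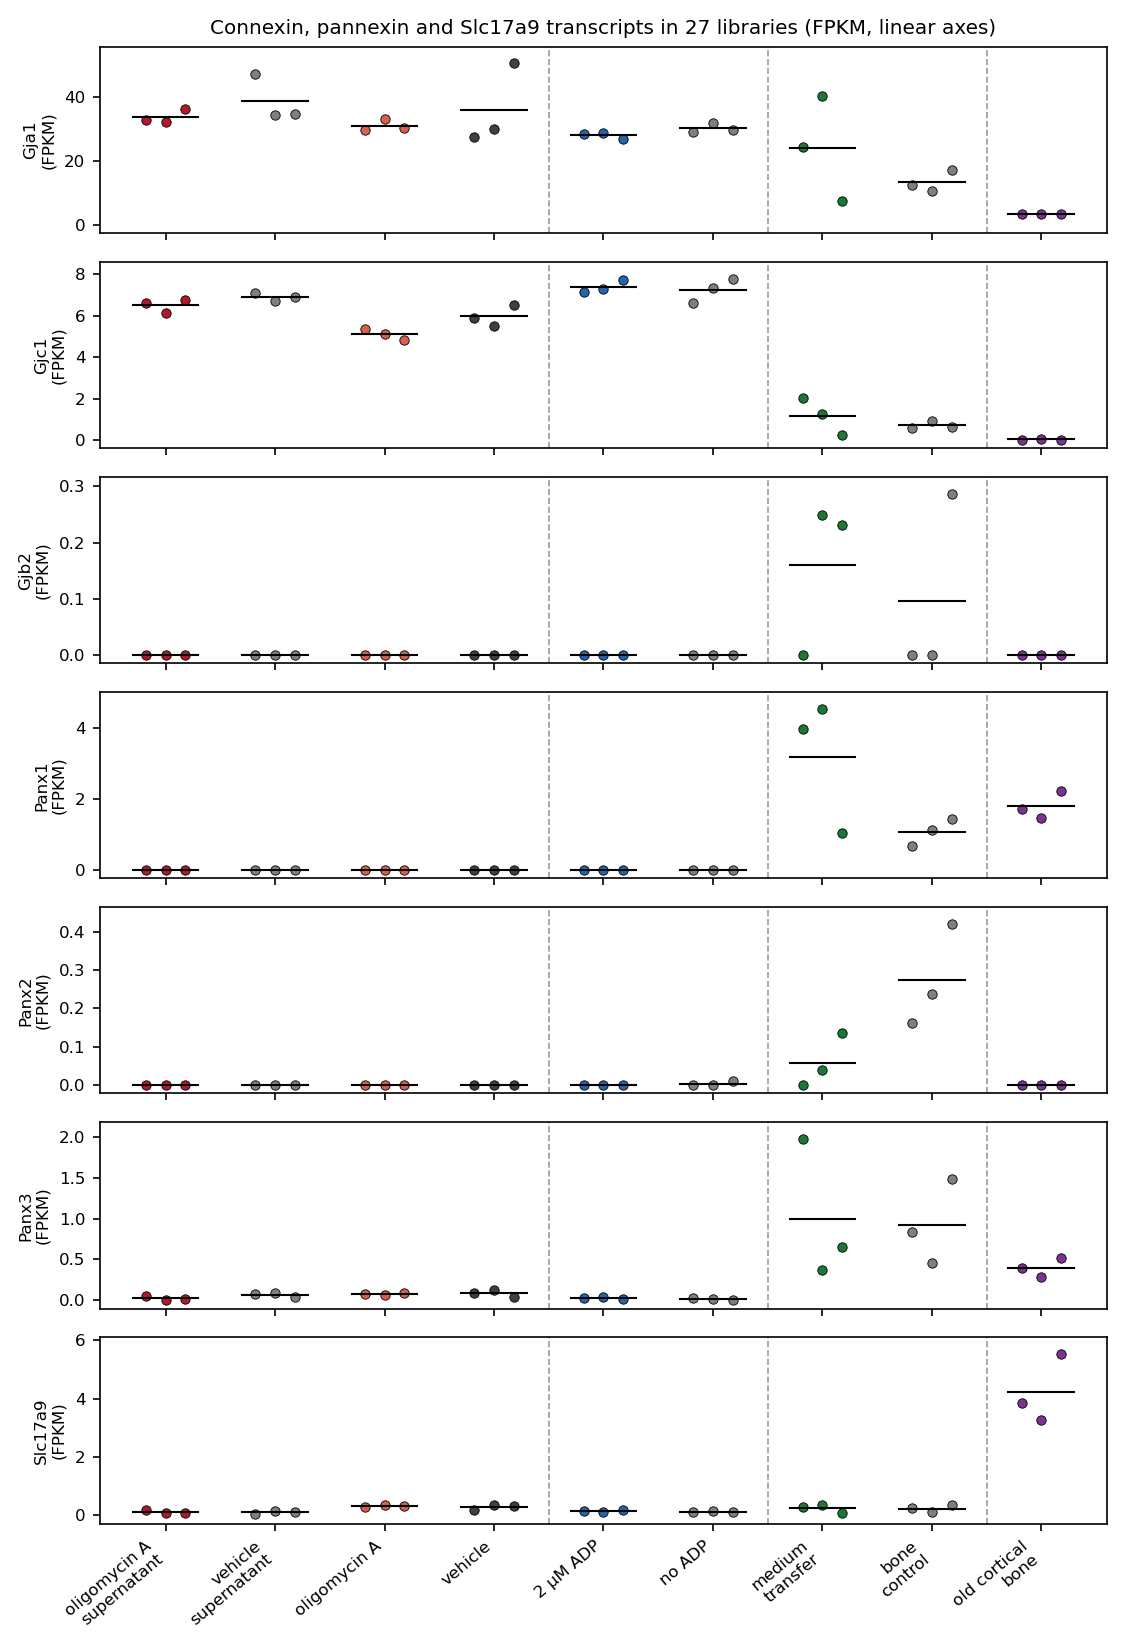
FPKM of each member (linear axes) in every library, with 3 points per group, a bar at the group mean and dashed lines between tables. Gja1 and Gjc1 were read in all MLO-Y4 libraries, while Gjb2, Panx1 and Panx2 lie at or next to 0 there, and Slc17a9 is highest in old cortical bone, at 3.28 to 5.54 FPKM.

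Panx1 (ENSMUSG00000031934, chromosome 9, 15002128 to 15045478, minus strand), a widely expressed pannexin, was listed at 0 in 17 of 18 MLO-Y4 libraries. The other one, oligomycin A supernatant replicate 1, had 0.00895 FPKM, about 1.04 fragments. For this gene 1 fragment corresponds to about 0.00634 to 0.0109 FPKM in MLO-Y4 libraries. The zeros did not reach genes that every cell uses: 51 genes of the proteasome, RNA polymerase II, the chaperonin and the initiation factor eIF3 had at least 4.04 FPKM in all of these libraries. Genes at such levels cannot show whether a transcript of low level would be listed at 0. In bone, Panx1 had 3.98, 4.54 and 1.03 FPKM after medium transfer, 0.683, 1.11 and 1.43 FPKM in bone control and 1.72, 1.47 and 2.22 FPKM in old cortical bone. It was thus above 0 in 9 of 9 bone libraries.

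Panx2 (ENSMUSG00000058441, chromosome 15, 89059734 to 89073567, plus strand), a pannexin best known from the nervous system, was listed at 0 in 17 of 18 MLO-Y4 libraries and in all of old cortical bone. In young bone it had at most 0.422 FPKM, and its values there corresponded to at most about 4.74 fragments. Panx3 (ENSMUSG00000011118, chromosome 9, 37659902 to 37669235, minus strand), a pannexin of osteoblasts and chondrocytes, had at most 0.127 FPKM in MLO-Y4 cells, about 7.05 fragments. In bone it had 1.98, 0.366 and 0.647 FPKM after medium transfer, 0.837, 0.454 and 1.49 FPKM in bone control and 0.388, 0.285 and 0.516 FPKM in old cortical bone. Panx3 made up 7.41% to 35.7% of the summed FPKM of the 3 pannexins after medium transfer, 25.2% to 49.8% in bone control and 16.3% to 18.8% in old cortical bone.

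Low values in young bone stood beside a background of transcripts that bone is not known to use. Olfactory receptor genes were above 0 for 61.7% to 87.1% of 1089 genes in young bone libraries, for 10.9% to 33.7% in old bone and for 4.04% to 5.51% in MLO-Y4 libraries. The 95th percentile of these genes was 0.706 to 2.94 FPKM in young bone. Gjb2, Panx2 and Slc17a9 lay below that percentile in 6 of 6 young bone libraries, Gjc1 in 5, Panx3 in 4 and Panx1 in 1, while Gja1 lay above it in all. The part of this background in the members' values was not tested.

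Slc17a9 (ENSMUSG00000023393, chromosome 2, 180725263 to 180742280, plus strand) had its highest values in old cortical bone, at 3.86, 3.28 and 5.54 FPKM. It exceeded Gja1 in 2 of these 3 libraries. It had 0.0866 to 0.332 FPKM after medium transfer, 0.0958 to 0.347 FPKM in bone control and 0.0312 to 0.347 FPKM in MLO-Y4 cells. Old cortical bone also held the highest sums of neutrophil marker genes, given above, and erythroid sums of 203227 to 215090 FPKM, against 2258 to 12201.5 FPKM in young bone. Their part in the Slc17a9 level was not tested. Of the same family, Slc17a5, the lysosomal sialic acid transporter, had 4.45 ± 0.343 FPKM in oligomycin A cells and 4.37 ± 0.503 FPKM in vehicle cells (SD, n = 3 each).

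Connexin composition was compared as a share, which does not depend on the factor by which a library was scaled. A share still includes any background in the summed genes, which differs between libraries. Of the summed FPKM of 20 connexin genes, Gja1 made up 74.7% to 87.5% and Gjc1 made up 11.2% to 21.4% in MLO-Y4 libraries. Gja1 made up 52.4% to 78.9% after medium transfer, 54.4% to 65.4% in bone control and 46.3% to 57.4% in old cortical bone. Of the 3 connexin members alone, Gja1 made up 92.3% to 96.5% after medium transfer and 92.1% to 95.5% in bone control. In old cortical bone that share was 98.5% to 100%. The lower shares among 20 genes thus rest on the other connexins, and the part of background in their values was not tested. In old cortical bone, Gja4, the vascular connexin 37 gene, had 1.62 ± 0.511 FPKM (SD, n = 3).

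**Figure D2:**
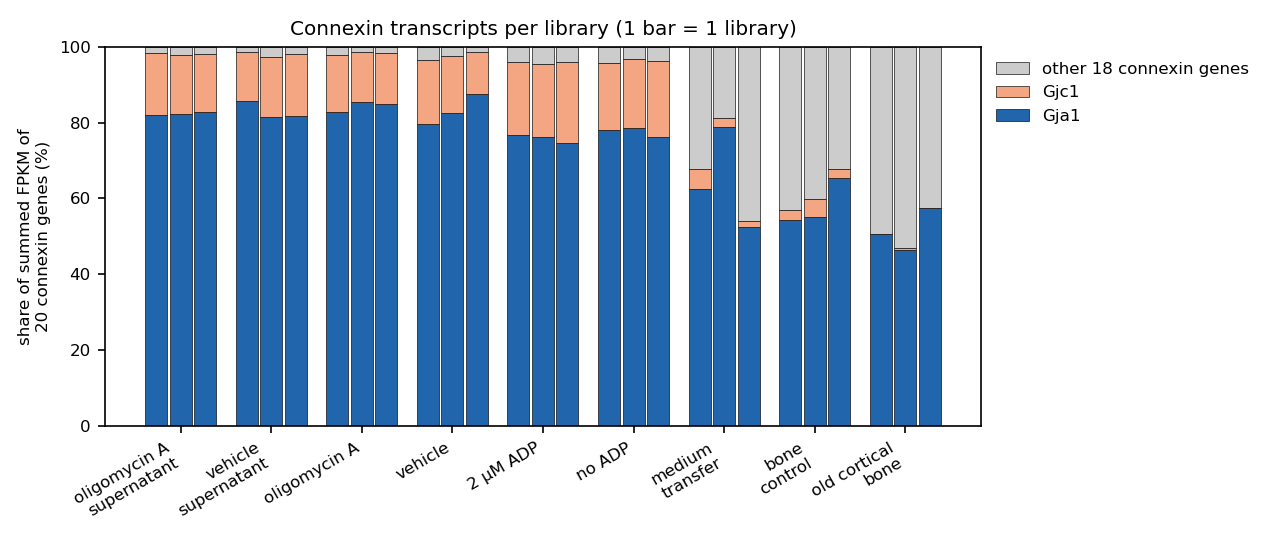
Share of the summed FPKM of 20 connexin genes (percent, 1 bar per library) held by Gja1, Gjc1 and the other 18 genes. Gja1 and Gjc1 fill most of the 18 MLO-Y4 bars, while the other genes take a larger part of the 9 bone bars, where Gjc1 takes at most 5.23%. The part of background in the other genes of the bone bars was not tested.

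No difference in these shares passed the exact two-sided permutation test, in which 3 against 3 libraries allow no p below 0.1. The Gja1 share was 84.4% ± 1.33 in oligomycin A cells and 83.2% ± 4.02 in vehicle cells (SD, n = 3 each, exact p = 0.6). It was 82.4% ± 0.426 with oligomycin A supernatant and 83.0% ± 2.33 with vehicle supernatant (SD, n = 3 each, exact p = 1.0). Vehicle supernatant against vehicle also gave an exact p of 1.0. In the first 2 pairs the means differed by less than the SD of the vehicle or vehicle supernatant libraries. The share was 76.0% ± 1.15 with 2 µM ADP and 77.7% ± 1.23 with no ADP (SD, n = 3 each, exact p = 0.3). It was 64.6% ± 13.3 after medium transfer and 58.3% ± 6.12 in bone control (SD, n = 3 each, exact p = 0.7). The Panx1 share of pannexin FPKM was 71.8% ± 18.0 after medium transfer and 48.3% ± 11.5 in bone control (SD, n = 3 each, exact p = 0.2). The lowest p after Benjamini-Hochberg adjustment over these 6 tests was 0.9.

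Oligomycin A was compared with vehicle to see how these genes respond within cells whose ATP synthase is blocked. No member passed the test, which was limma on log2(FPKM + 1) with Benjamini-Hochberg adjusted p below 0.05 over all genes with a mean of at least 1 FPKM. Of the 7 members only Gja1 and Gjc1 passed that filter in MLO-Y4 cells. Of all 11902 genes tested, 5.34% were called in treated cells. Gja1 had 29.8, 33.2 and 30.4 FPKM in oligomycin A cells, against 27.5, 30.2 and 50.8 FPKM in vehicle cells. The groups overlap, and 1 vehicle library lies well above the other 5. The log2 fold change was -0.16 ± 0.19 (SE, adjusted p = 0.670), with a 95% interval of -0.58 to 0.26, and it became 0.11 without vehicle replicate 3. Gjc1 had 5.37, 5.14 and 4.84 FPKM in oligomycin A cells, against 5.91, 5.51 and 6.50 FPKM in vehicle cells. All treated libraries were lower than all vehicle libraries (exact permutation p = 0.1), with a log2 fold change of -0.19 ± 0.07 (SE, adjusted p = 0.118). With quantile normalization the same difference passed, at -0.21 (adjusted p = 0.0356), where 1226 of all genes were called, against 636 without it. Leaving out vehicle replicate 2 gave -0.24 (adjusted p = 0.0623), and leaving out vehicle replicate 3 gave -0.13 (adjusted p = 0.307). Panx3 had 0.0706, 0.0676 and 0.0854 FPKM in oligomycin A cells and 0.0895, 0.127 and 0.0387 FPKM in vehicle cells, and Slc17a9 had 0.276, 0.347 and 0.328 FPKM in oligomycin A cells and 0.185, 0.340 and 0.295 FPKM in vehicle cells. Both overlap between the groups.

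Among related genes, 2 of 19 measured genes of vesicle docking and fusion passed in oligomycin A cells, 1 in each direction. Vamp8, a SNARE protein of secretory vesicles, fell to 12.5 ± 1.72 FPKM in oligomycin A cells, against 18.4 ± 0.652 FPKM in vehicle cells (SD, n = 3 each). Its log2 fold change was -0.53 ± 0.09 (SE, limma adjusted p = 0.00727). Stxbp3, a syntaxin-binding protein, rose to 15.3 ± 0.422 FPKM, against 12.6 ± 0.185 FPKM in vehicle cells (SD, n = 3 each, log2 fold change 0.27, limma adjusted p = 0.0284). The median log2 fold change of this list was 0.00 and that of all genes -0.004. Of 15 measured connexin partners, 7 other large-pore channels, 11 mechanosensors and integrins and Slc17a5, 0 passed, so that 3.77% of the 53 tested list genes were called, beside 5.34% of all genes. No gene of these lists passed when libraries were rescaled to one total, with or without mitochondrial genes. Both scalings keep the rRNA-like and 7S genes, which took 27.3% of the summed FPKM in vehicle replicate 2.

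The comparison of supernatants concerns normally cultured cells that received the supernatant of oligomycin A cells or of vehicle cells. Whether oligomycin A was carried over in the supernatant was not tested, so released factors and carried-over drug were not told apart. No member passed here, where 0.386% of all genes were called. Gja1 had 32.9, 32.2 and 36.5 FPKM with oligomycin A supernatant, against 47.3, 34.4 and 34.9 FPKM with vehicle supernatant. The groups overlap and the log2 fold change was -0.18 ± 0.19 (SE, adjusted p = 0.928). Gjc1 had 6.60, 6.12 and 6.77 FPKM with oligomycin A supernatant, against 7.10, 6.69 and 6.91 FPKM with vehicle supernatant. These also overlap, with a log2 fold change of -0.08 ± 0.07 (SE, adjusted p = 0.891). Panx3 had 0.0462, 0 and 0.0143 FPKM with oligomycin A supernatant and 0.0705, 0.0916 and 0.0341 FPKM with vehicle supernatant, which overlap. The response in recipients minus that in treated cells was 0.11 ± 0.09 for Gjc1 and -0.02 ± 0.27 for Gja1 on the log2 scale (SE, adjusted p = 0.712 and 0.988), where 0.445% of all genes were called. None of the related genes passed in either test, against 46 and 53 of all genes called and 962 and 1276 at an unadjusted p below 0.05.

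Recipients as a whole differed from directly treated cells in 2 members, Gjc1 and Slc17a9. This comparison of both supernatant groups with both treated groups was added after the values were seen. Duration (2 h and 1 h) and medium (supernatant of another culture or not) both differ between the sides and cannot be told apart. It called 30.7% of all genes, 18.9% higher and 11.9% lower, so a call here is common. The split by direction moved with scaling, from 2244 higher and 1413 lower calls to 1959 higher and 2080 lower with median-of-ratios factors and 1246 higher and 444 lower on one total. Gjc1 rose to 6.70 ± 0.332 FPKM in the 6 recipient libraries, against 5.54 ± 0.588 FPKM in the 6 treated libraries (SD), a log2 fold change of 0.24 ± 0.05 (SE, adjusted p = 0.00293). Recipients ranged over 6.12 to 7.10 FPKM and treated cells over 4.84 to 6.50 FPKM. The ranges overlap through vehicle replicate 3 alone. Without vehicle replicate 2, whose 7S and rRNA-like share stood apart, the log2 fold change of Gjc1 was 0.21 (adjusted p = 0.00516). The call ended when libraries were rescaled without mitochondrial genes, where the log2 fold change was 0.29 (adjusted p = 0.0515). That scaling keeps the rRNA-like and 7S genes, which took 27.3% of the summed FPKM in vehicle replicate 2. Within the vehicle arm alone the difference was 0.18 ± 0.07 (SE, adjusted p = 0.0842) with no overlap between libraries, where 14.7% of all genes were called, and it passed without vehicle replicate 3, at 0.24 (adjusted p = 0.0470). Gja1 had a log2 fold change of 0.13 ± 0.14 in recipients against treated cells (SE, adjusted p = 0.508), and it too passed without vehicle replicate 3, at 0.26 (adjusted p = 0.0428).

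Slc17a9 lay below the filter. It had 0.173, 0.0774 and 0.0872 FPKM with oligomycin A supernatant and 0.0312, 0.145 and 0.0924 FPKM with vehicle supernatant, against 0.276, 0.347 and 0.328 FPKM in oligomycin A cells and 0.185, 0.340 and 0.295 FPKM in vehicle cells. All 6 recipient libraries were lower than all 6 treated libraries, by a narrow margin. Recipients averaged 0.101 ± 0.0507 FPKM and treated cells 0.295 ± 0.0605 FPKM (SD, n = 6 each). An exact permutation test over the 400 regroupings within the oligomycin A and vehicle arms gave p = 0.005, the smallest it allows, for Slc17a9 and for Gjc1, against 0.06 for Panx3 and 0.465 for Gja1. These 4 members were tested after their values were seen. How many of all genes separate so or reach p = 0.005 in this permutation test is not given here. It may be common, as limma called 30.7% of all genes in this comparison. In a fit with no filter on low values Slc17a9 fell by 0.23 on the log2(FPKM + 1) scale (adjusted p = 0.00468), where 5.15% of 29669 genes were called lower. The levels rest on few fragments, about 34.6 in the 6 recipient libraries together and 96.4 in the 6 treated ones.

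**Figure D3:**
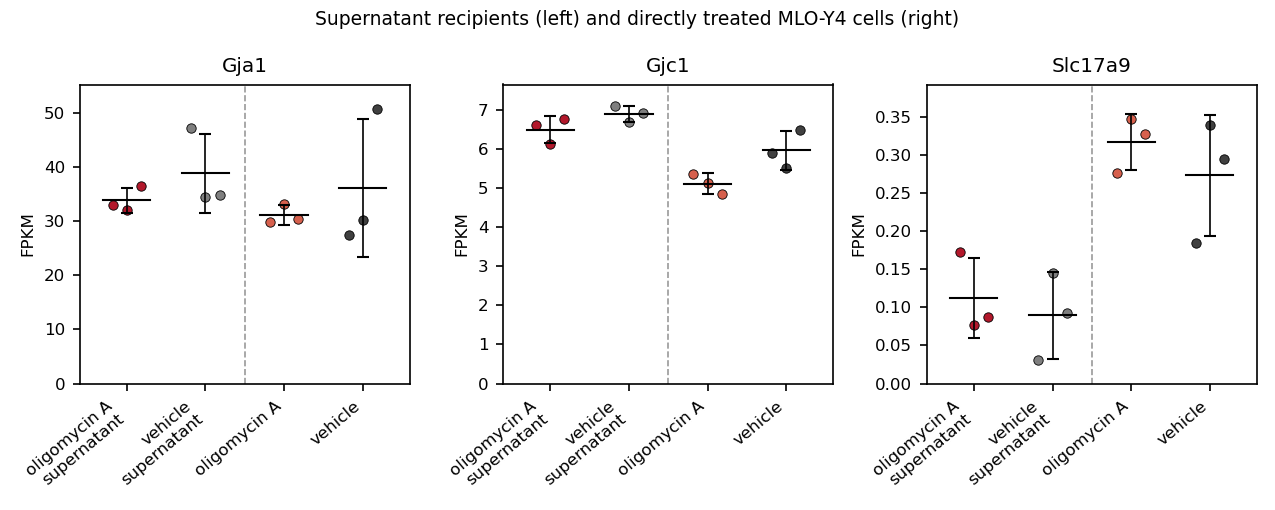
FPKM of Gja1, Gjc1 and Slc17a9 in the 2 recipient groups (left of the dashed line) and the 2 directly treated groups, with points for libraries, a bar at the mean and an error bar of 1 SD. Gjc1 is higher and Slc17a9 lower in recipients, at 0.101 against 0.295 FPKM for Slc17a9, while Gja1 overlaps throughout.

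Of the 53 tested genes of the related lists 15 passed in this comparison, or 28.3%, close to the 30.7% of all genes, so the count is no more than the background. Of 15 measured connexin partners and turnover genes 3 rose and 1 fell. Vcl, the adhesion protein vinculin, had a log2 fold change of 0.61, Ubqln4, a ubiquilin, of 0.51 and Nov, the matricellular CCN3 protein that binds connexin 43, of 0.37, while Akap9 had -0.20. Of 11 mechanosensors and integrins 3 rose, namely Itga5 and Itgb1, the subunits of the fibronectin receptor, at 0.63 and 0.19, and Pkd2, polycystin 2, at 0.27. Of 7 other large-pore channels 1 rose, Calhm2, at 0.27. Of 19 vesicle docking and fusion genes 3 rose and 4 fell, among them Syt7, a calcium sensor of exocytosis, at 0.42 and Rab3d, a small GTPase of secretory vesicles, at -0.37. The medians of these lists lay between -0.01 and 0.07, and that of all genes was 0.03. The adjusted p of the 15 called genes was at most 0.0338, while 9 genes of the lists passed on one total and 8 with mitochondrial genes also left out. Marker genes of several cell types moved too. The 3 tested of 4 fibroblast markers rose, with list sums of 144.8 to 163.8 FPKM in recipients and 115.8 to 131.0 FPKM in treated cells. Of 7 osteocyte markers 3 were tested and Pdpn and Phex rose, with list sums of 272 to 305 FPKM in recipients and 191 to 234 FPKM in treated cells. Of 6 osteoclast markers 2 were tested and Ctsk rose (log2 fold change 0.59), and of 7 neutrophil markers 2 were tested and S100a8 rose (0.67). Of 4 macrophage markers only Cd68 was tested, and it fell (-0.84). Of 8 osteoblast markers 4 were tested and Col1a1 fell (-0.15). The other tested osteoclast, neutrophil and osteoblast markers were not called, so these are single genes of their lists. The part of these markers in the members' results was not tested. Within the vehicle arm alone, Vcl had 46.0 ± 0.280 FPKM with vehicle supernatant and 29.1 ± 2.87 FPKM with vehicle (SD, n = 3 each, limma adjusted p = 0.000354), and 8 of the 53 list genes passed, or 15.1%, beside 14.7% of all genes.

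ADP, the product of ATP that acts on several purinergic receptors, gave no call among the members at 2 µM, where 0.0603% of all 11604 genes tested were called. Gja1 had 28.4, 29.0 and 27.1 FPKM with 2 µM ADP, against 29.3, 31.9 and 29.8 FPKM with no ADP. All ADP libraries were lower than all no ADP libraries, by a log2 fold change of -0.10 ± 0.04 (SE, 95% interval -0.21 to 0.003, adjusted p = 0.842). The exact permutation p of this separation was 0.1, and how many of all genes separate so is not given here. Gjc1 had 7.13, 7.28 and 7.75 FPKM with 2 µM ADP, against 6.62, 7.33 and 7.80 FPKM with no ADP. The groups overlap, at a log2 fold change of 0.03 ± 0.06 (SE, adjusted p = 0.971). Slc17a9 had 0.128, 0.109 and 0.185 FPKM with 2 µM ADP and 0.120, 0.151 and 0.0950 FPKM with no ADP, which overlap. No gene of the related lists passed, while 678 of all genes had an unadjusted p below 0.05.

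The medium transfer fragments were compared with their control. As the labels do not say which group got medium of old bone, the contrast cannot be read as donor medium against none. Of the 7 members, Gja1 and Panx1 passed the filter in young bone and 0 passed the test, where 0.0243% of all 16438 genes were called. Gja1 had 24.5, 40.4 and 7.58 FPKM after medium transfer, against 12.6, 10.7 and 17.1 FPKM in bone control. The groups overlap and the medium transfer libraries spread widely. The log2 fold change was 0.55 ± 0.84 (SE, adjusted p = 0.900), and the median over all genes was 0.45. Panx1 had a log2 fold change of 0.90 ± 0.60 (SE, adjusted p = 0.900), with 1 medium transfer library inside the range of bone control. Without medium transfer replicate 2, whose share of satellite-like genes stood apart, the log2 fold changes were 0.06 for Gja1 and 0.63 for Panx1. Among marker genes of other cell types, Cfd of adipocytes was called, at 40.3 ± 42.6 FPKM after medium transfer and 0.215 ± 0.190 FPKM in bone control (SD, n = 3 each, limma adjusted p = 0.000256). Cfd was listed at 0 in 1 library of each group, so the groups overlap. Of 4 adipocyte markers 2 were tested, and the other tested one was not called. The part of Cfd in the members' values was not tested. On simulated data, 0% of genes changed by a log2 fold change of 1 were recovered in this table, so a change of that size could be missed.

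The share of satellite-like genes moved with these values: it was 66.1%, 5.83% and 89.9% after medium transfer and 86.1%, 88.6% and 81.7% in bone control. Members were therefore also expressed per M of summed FPKM after repeat-like genes (rRNA-like, 7S and satellite-like) were left out. The fit on this scale was one of the listed alternatives, and the levels per library were added after the data were seen. On that scale Gja1 had 104, 94.9 and 74.9 per M after medium transfer, against 92.4, 96.0 and 101 per M in bone control. The log2 fold change became -0.09 ± 0.20 (SE, limma adjusted p = 1.00), so its direction turned. Panx1 had 16.9, 10.7 and 10.2 per M after medium transfer, against 5.02, 9.92 and 8.44 per M in bone control. These did not overlap, by a narrow margin (10.2 against 9.92 per M), at a log2 fold change of 0.46 ± 0.31 (SE, limma adjusted p = 1.00). Groups of 3 libraries without overlap allow no exact permutation p below 0.1.

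**Figure D4:**
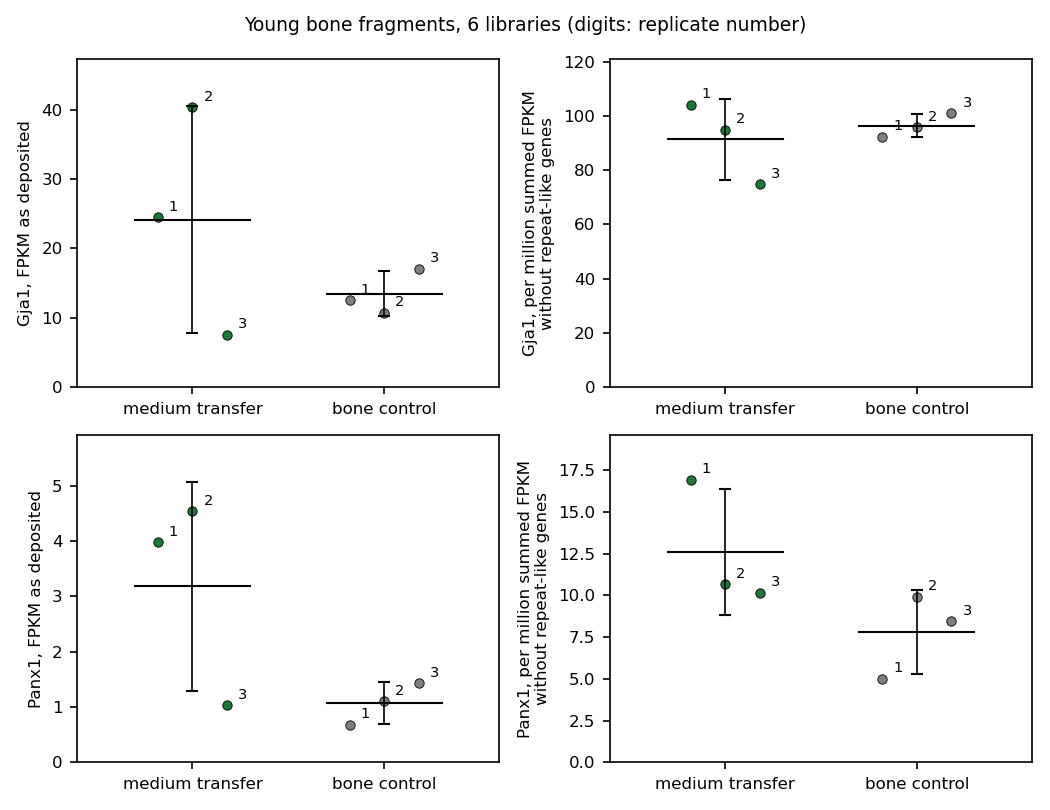
Gja1 (top) and Panx1 (bottom) in the 6 young bone libraries as deposited FPKM (left) and per M summed FPKM without repeat-like genes (right), with digits for replicate numbers, a bar at the mean and an error bar of 1 SD. The Gja1 libraries draw together after rescaling, to 74.9 to 104 per M, while the Panx1 libraries of the 2 groups no longer overlap, by a narrow margin.

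Panx3 had 0.998 ± 0.862 FPKM after medium transfer and 0.926 ± 0.522 FPKM in bone control, and Slc17a9 had 0.234 ± 0.130 FPKM after medium transfer and 0.224 ± 0.126 FPKM in bone control (SD, n = 3 each). Panx2 had 0, 0.0391 and 0.137 FPKM after medium transfer and 0.162, 0.239 and 0.422 FPKM in bone control, which did not overlap but rest on few fragments. In a fit with no filter the lowest adjusted p of a member was 0.938. Of the related lists 0 genes passed: 15 of 15 measured connexin partners and 20 of 20 vesicle docking and fusion genes had positive log2 fold changes, as had most genes, and their medians were 0.61 and 0.55 beside 0.45 for all genes.

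**Figure D5:**
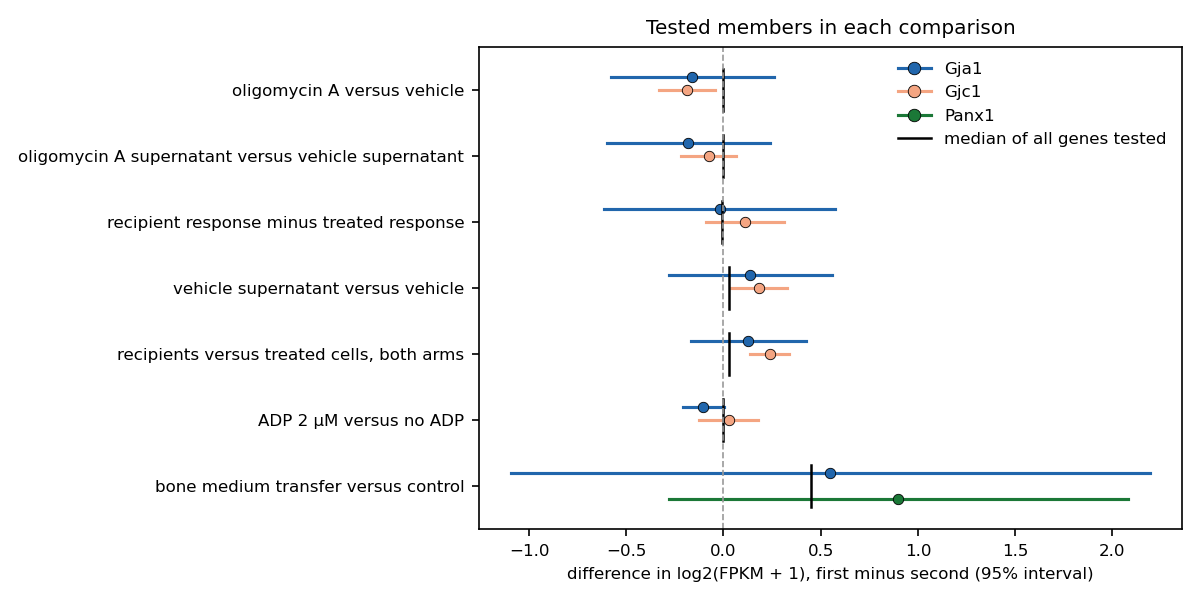
Difference in log2(FPKM + 1) of each tested member (points) with its 95% interval (lines), for each comparison, first group minus second. The black ticks are medians of all genes tested. The Gjc1 interval for recipients against treated cells lies above 0, and the Panx1 and Gja1 intervals of bone are the widest, around a median of 0.45 for all genes.

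The transcripts whose pattern was most like a member's were taken over the 12 libraries of the oligomycin A table by Pearson correlation of log2(FPKM + 1), among 6540 genes with a mean of at least 5 FPKM. For Gjc1 these were Nus1, a subunit of the dehydrodolichyl diphosphate synthase, at 0.97, Ddx49, a putative RNA helicase, at 0.954 and Thumpd1, a tRNA acetylation adaptor, at 0.952. For Gja1 they were the pseudogene Pdcd5-ps at 0.856, Atp6ap1, an accessory subunit of the vacuolar proton pump, at 0.855 and Dbt, a subunit of the branched-chain keto acid dehydrogenase, at 0.826. The libraries share their groups and scaling, and no test was made of these values.

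Other channels that can pass ATP or large solutes showed which transcripts stood beside the low pannexin levels of MLO-Y4 cells. Of the LRRC8 subunits of volume-regulated anion channels, Lrrc8a had 10.5 ± 0.749 FPKM and Lrrc8e 3.94 ± 0.384 FPKM in vehicle cells (SD, n = 3). Lrrc8b was listed at 0 in vehicle and in no ADP cells, and it had 1.24 ± 0.119 FPKM in old cortical bone (SD, n = 3). Ank, a membrane protein that exports ATP and is known for pyrophosphate supply in bone, had 17.6 ± 0.786 FPKM in vehicle cells, 72.5 ± 55.9 FPKM after medium transfer and 39.6 ± 7.60 FPKM in bone control (SD, n = 3 each). P2rx7, an ATP-gated channel, had 0.560 ± 0.0781 FPKM in vehicle cells (SD, n = 3), and 7 of the 20 measured genes of this list reached the filter of 1 FPKM in the oligomycin A table.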

How the data were processed

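Purified mRNA was sequenced, per the labels' protocols. Values are FPKM in 4 tables that the authors deposited. The tool behind the FPKM is not given in the sources, which list HTSeq and mm10 without a role in the submitters' processing notes. Sample titles gave the groups. For vehicle samples one label lists oligomycin A (50 mM, the stock in the protocol) beside DMSO; the title and the protocol, which say vehicle, were followed.

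Members and gene lists were chosen with earlier results of these data known. Tests used limma 3.58.1 in R 4.3.3 on log2(FPKM + 1) with trend turned on, keeping genes that averaged at least 1 FPKM over the fit's libraries, and with Benjamini-Hochberg adjustment over all of them. Changes of low genes come out too small on this scale. A single fit held all 4 groups of the oligomycin A table. Tests were made only within a table. Exact permutation tests used SciPy 1.17.1. Groups of 3 libraries that do not overlap give an exact permutation p of 0.1, the smallest that 3 against 3 libraries allow. The share of all genes without overlap is not given here.

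Named genes were the 7 members, up to 6 called genes of each related list by p, and the 3 genes most correlated with a member; levels of other list genes were described after their values were seen. Positions came from GENCODE M21 (GRCm38), in which 55154 gene IDs were found. Depth was estimated from genes with 1 transcript: whole values (within 0.1 of a fragment) made up 49.2% to 54.1% of low values for MLO-Y4, 20.7% to 46.3% for young bone and 24.4% to 28.2% for old bone, where evenly spread values would give 20%. This is too few to recover counts, so no test of counts was made. Fragments behind a value are FPKM times exon length times this depth, and rough. Of the compared libraries no pair shared more than 0.0256% of its values. On simulated data with 200 genes changed by a log2 fold change of 1, 94.5% were recovered for oligomycin A among 11902 genes, 90.5% for ADP among 11604 and 0% for medium transfer among 16437. Pseudocounts, filters, scalings, variance priors, a replicate block and fits that leave out 1 library each were the alternatives.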

Additional observations from a re-analysis of the deposited data

How the results depend on the processing

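Calls among all genes depended on scaling and filter; members' calls changed only as stated in the results above. For oligomycin A against vehicle (636 calls) there were 386 with no filter, 276 on one total, 235 when mt- genes were left out, 1170 with median-of-ratios factors, 1226 with quantile normalization, 1103 without repeat-like genes and 412 in a fit of 6 libraries. The higher share moved with them: 442 higher and 194 lower became 257 and 19 on one total, 704 and 522 with quantile normalization and 286 and 366 without vehicle replicate 2, which turns the balance. For vehicle supernatant, 1129 and 617 became 1095 and 1116 with median-of-ratios factors and 628 and 731 without vehicle replicate 2. For the supernatants (46) these counts were 23, 17, 14, 81, 85, 81 and 7, and 28 with the replicate block. For the difference of responses (53) they were 31 on one total, 24 without mt- genes, 102 with median-of-ratios factors or quantile normalization, 110 without repeat-like genes and 35 with the block. For vehicle supernatant (1746) they were 587, 501 and, in 6 libraries, 829; for recipients against treated cells (3657) they were 1690 on one total and 1442 without mt- genes. Medians of all genes moved by over 0.1 on one total and without mt- genes, to 0.121 and 0.117 for oligomycin A and 0.777 and 0.807 for bone. ADP (7 calls) had 0 with no filter or the block and 1 at a mean of 5 FPKM. Bone (4) had 2 with pseudocount 0.5, on one total, without mt- genes, with no variance trend or with the block, 1 at a mean of 5, and 0 with no filter, median-of-ratios, quantile or repeat-free scaling.

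Leaving out 1 library gave 265 to 652 calls for oligomycin A, 22 to 59 for supernatant, 35 to 70 for the difference of responses, 1002 to 1359 for vehicle supernatant, 2931 to 3656 for recipients against treated cells, 0 to 40 for ADP and 0 to 7 for bone. For Gja1 it gave -0.325 to 0.106 (oligomycin A), -0.286 to 0.145 (difference of responses) and -0.027 to 0.404 (vehicle supernatant), and -0.03 to 0.074 for Gjc1 with ADP. Without vehicle replicate 3, Gja1 passed in recipients against treated cells, at 0.261 (adjusted p = 0.0428). Slc17a9 there kept its direction, with recipients minus treated cells at -0.216 to -0.177 FPKM. The difference of responses for Gjc1 turned to -0.001 on one total and -0.012 without mt- genes. Gja1 in bone turned to -0.082 with median-of-ratios factors, -0.09 with quantile normalization and -0.086 without repeat-like genes. The cause of these changes was not tested.

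Same-numbered libraries correlated at -0.14 to 0.059 in the oligomycin A table, -0.006 to 0.038 with ADP and -0.228 to -0.079 in bone. Unlike-numbered libraries of the oligomycin A table reached -0.22 and 0.22. No pairing by number was seen, but with 3 libraries per group these values cannot exclude one. The replicate block changed no member's call. In MLO-Y4 libraries all members but Gja1 and Gjc1 rest on at most about 22.2 fragments per library. In young bone all but Gja1 and Panx1 rest on at most about 43.9, and Panx1 rests on about 12.9 to 194.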
